A study of Mus musculus with 7 samples.

Results

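The histone cluster genes are the protein-coding genes of the mouse whose symbols begin with Hist1h, Hist2h, Hist3h or Hist4. GENCODE M21 (GRCm38) annotates 67 of them, and 53 were matched by Ensembl identifier among the 28987 genes of the deposited expression table. These 53 are described here, and the other 14 were not analysed here. By the histone they encode, they were 6 genes for linker histone H1, 16 for H2A, 13 for H2B, 6 for H3 and 12 for H4. On GRCm38, 43 of them lie on chromosome 13 between 21716422 and 23934851, 8 on chromosome 3 between 96219865 and 96269141, and 2 on chromosome 11.

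RNA was sequenced from bone marrow of C57BL/6 mice in 7 libraries. In HSC/P (stem and progenitor cells enriched with CD117 beads, from which the mutant clone was sorted) there was 1 library with HMGA2 overexpression (HMGA2-OE) and 2 with RUNX1 mutation plus HMGA2-OE (RUNX1mut/HMGA2-OE). Sorted Ly6G+ cells, mature myeloid cells, gave 1 library for each of 4 genotypes: Control, RUNX1mut alone, HMGA2-OE alone and the combined RUNX1mut/HMGA2-OE. All 3 HSC/P libraries therefore carried HMGA2-OE, with no Control and no RUNX1mut alone. Marrow came from individual mice, and no age, RUNX1 allele or promoter of the overexpression is stated in the labels. Series of values below run in the order HSC/P HMGA2-OE, then its pair of RUNX1mut/HMGA2-OE libraries, and for Ly6G+ cells from Control through RUNX1mut and HMGA2-OE to the combined genotype. Only the RUNX1mut/HMGA2-OE HSC/P group had a second library, and p-values rest on 1 or 2 residual degrees of freedom. In the additive fit to the 4 Ly6G+ libraries no replicate entered. The SE and p-values there rest on the departure from additivity of the RUNX1 and HMGA2-OE terms, not on variation between mice. Additive fits over both cell types mix such a departure with the spread of the replicate pair. In the interaction fit the residual spread is that of this pair alone.

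Core histones H2A, H2B, H3 and H4 wrap DNA into nucleosomes, and H1 binds the linker DNA between them. Clustered histone genes are called replication-dependent because their transcription and mRNA stability rise in S phase, when new chromatin needs histones. Their mRNAs usually end after a conserved stem-loop, bound by the protein Slbp, and not in a poly(A) tail, although some members also make polyadenylated mRNAs in cells that have stopped dividing. The labels do not state whether poly(A)+ RNA was selected, so the levels are those of the RNA that these libraries captured.

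The stem-loop was searched in the annotated transcripts as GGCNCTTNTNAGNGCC, 16 bases on the transcript strand. It was present in 35 of the 53 genes (66.0%) and in 7 of 21884 other protein-coding genes (0.032%), among them H2afx, the gene of a histone variant whose mRNA can also end at a stem-loop. The forms carried by the genes with the highest levels are shown because they separate H4 from the other histones. The stem comes first and last in lower case, and capitals mark the 4-base loop.
Found in 20 genes of H1, H2A, H2B and H3, among them Hist2h2aa2, Hist1h1c and Hist1h1e: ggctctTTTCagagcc
Found in 6 H4 genes, among them Hist1h4d, Hist1h4m and Hist1h4n: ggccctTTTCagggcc
Found in 5 genes of H1, H2B and H3, among them Hist1h3c and Hist1h3e: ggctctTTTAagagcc
Found in the H4 genes Hist1h4i and Hist2h4: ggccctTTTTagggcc

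All H4 genes with the motif had the ggccct stem, and all genes of the other 4 histone types had ggctct. The remaining 18 genes, including Hist1h2bc and Hist1h4k, had no match in their annotated transcripts, which says only that these letters are absent from those models.

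Libraries differed as a whole in ways that touch every value below. The 8 neutrophil markers on a fixed list summed to 61278 TPM (the deposited length-normalised transcript abundance) in HSC/P HMGA2-OE and to 17565 and 18318 TPM in the 2 HSC/P RUNX1mut/HMGA2-OE libraries. In Ly6G+ cells they summed to between 247469 and 656999.5 TPM, with the lowest sum in RUNX1mut/HMGA2-OE. That low sum came from S100a8 alone, at 30622 TPM there and at 398580 to 546267 TPM in the other 3 Ly6G+ libraries, while the other 7 neutrophil markers were highest in RUNX1mut/HMGA2-OE. TPM share a fixed total in each library, so a difference of that size in S100a8 moves the TPM of all other genes. The RUNX1mut/HMGA2-OE library also held 2070 TPM over 9 erythroid markers, against 103 to 444 TPM in the other Ly6G+ libraries. Runx1 stood at 18.9 TPM in HSC/P HMGA2-OE and at 219 and 225 TPM in RUNX1mut/HMGA2-OE, and Hmga2 at 138 to 176 TPM in HSC/P and at 1.45, 1.36, 3.72 and 12.1 TPM in Ly6G+ cells. The part of these differences in cell content in any result below was not tested. Differences per cell and differences in the number of cells of a type cannot be told apart in such bulk libraries.

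Together the 53 genes made up a small share of the RNA, and a larger one in Ly6G+ cells. They summed to 222 TPM in HSC/P HMGA2-OE and to 293 and 324 TPM in HSC/P RUNX1mut/HMGA2-OE. The Ly6G+ sums were 589, 555, 533 and 899 TPM. The groups did not overlap, and the range over all libraries was 0.0247% to 0.0913% of the table's TPM. A single H2A gene, Hist2h2aa2, accounted for much of that gap: without it, HSC/P held 217 to 319 TPM and Ly6G+ cells 298 to 474 TPM, and the ranges overlapped.

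**Figure D1:**
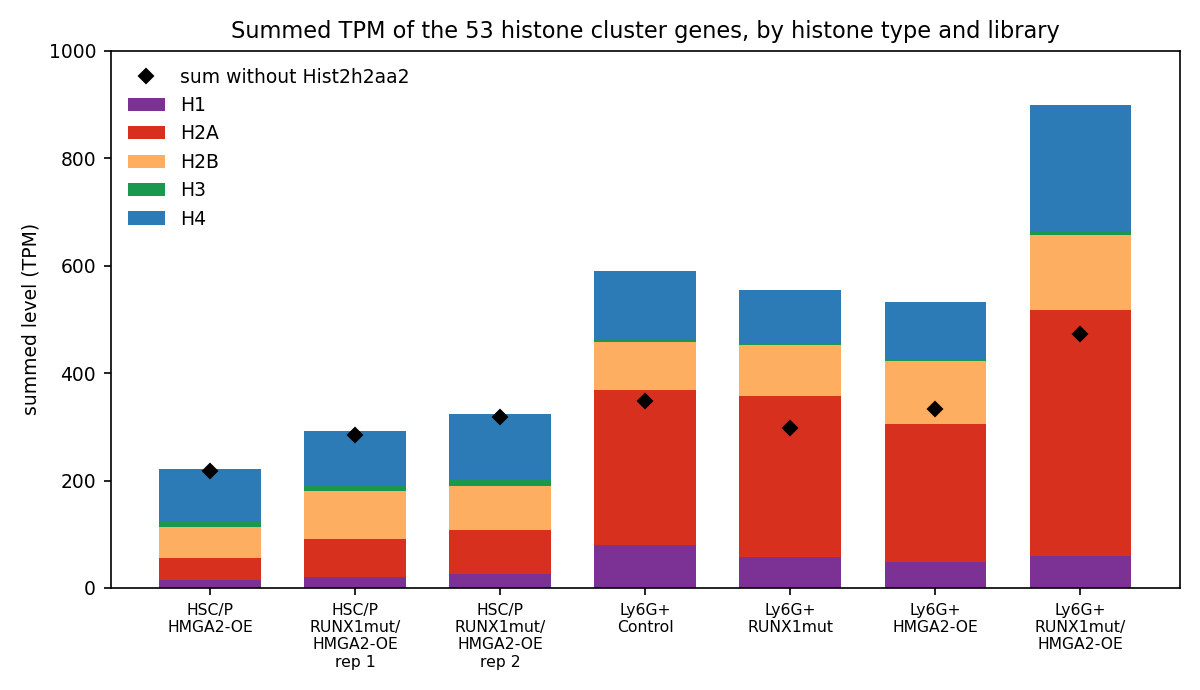
Stacked bars give the summed level (TPM) of the 53 histone cluster genes in each of the 7 libraries, coloured by histone type, and diamonds the sum without Hist2h2aa2. Every Ly6G+ bar (533 to 899 TPM) is taller than every HSC/P bar (222 to 324 TPM), while the diamonds of the cell types overlap.

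The makeup by histone type differed between the cell types. H4 genes gave 35.0% to 43.9% of the members' TPM in HSC/P and 17.8% to 26.3% in Ly6G+ cells. H2A genes gave 18.6% to 25.4% in HSC/P and 48.3% to 54.0% in Ly6G+ cells. Both shares depend on Hist2h2aa2, which is part of the total. In TPM the H4 sums overlapped, at 97.2 to 121 in HSC/P and 98.8 to 236 in Ly6G+ cells. H2A sums without Hist2h2aa2 overlapped too, at 37.1 to 77.1 TPM in HSC/P and 32.9 to 57.1 TPM in Ly6G+ cells. The H3 genes summed to 10.6 to 11.9 TPM in HSC/P and to 3.15 to 6.06 TPM in Ly6G+ cells, and H1 genes to 14.5 to 25.1 and 48.3 to 79.3 TPM. H2B sums touched, at 57.5 to 87.950 TPM in HSC/P and 87.874 to 140 TPM in Ly6G+ cells.

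Most members were near the lower end of the measured range. Of the 53 genes, 50 were above 0 in a library, 44 reached 1 TPM in a library, 16 reached 10 TPM in a library and 13 reached 1 TPM in all 7. Hist1h2aa, Hist1h2ba and Hist2h2ab were listed at 0 throughout. By contrast, 10 genes listed as replication-independent histones, which are expressed outside S phase and mostly end in ordinary poly(A) tails (H2afx, named above, carries the stem-loop), summed to 3856 to 4548 TPM in HSC/P and 1358 to 2816 TPM in Ly6G+ cells. H3f3a, which encodes H3.3, alone stood between 663 and 1417 TPM in the 7 libraries.

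**Figure D2:**
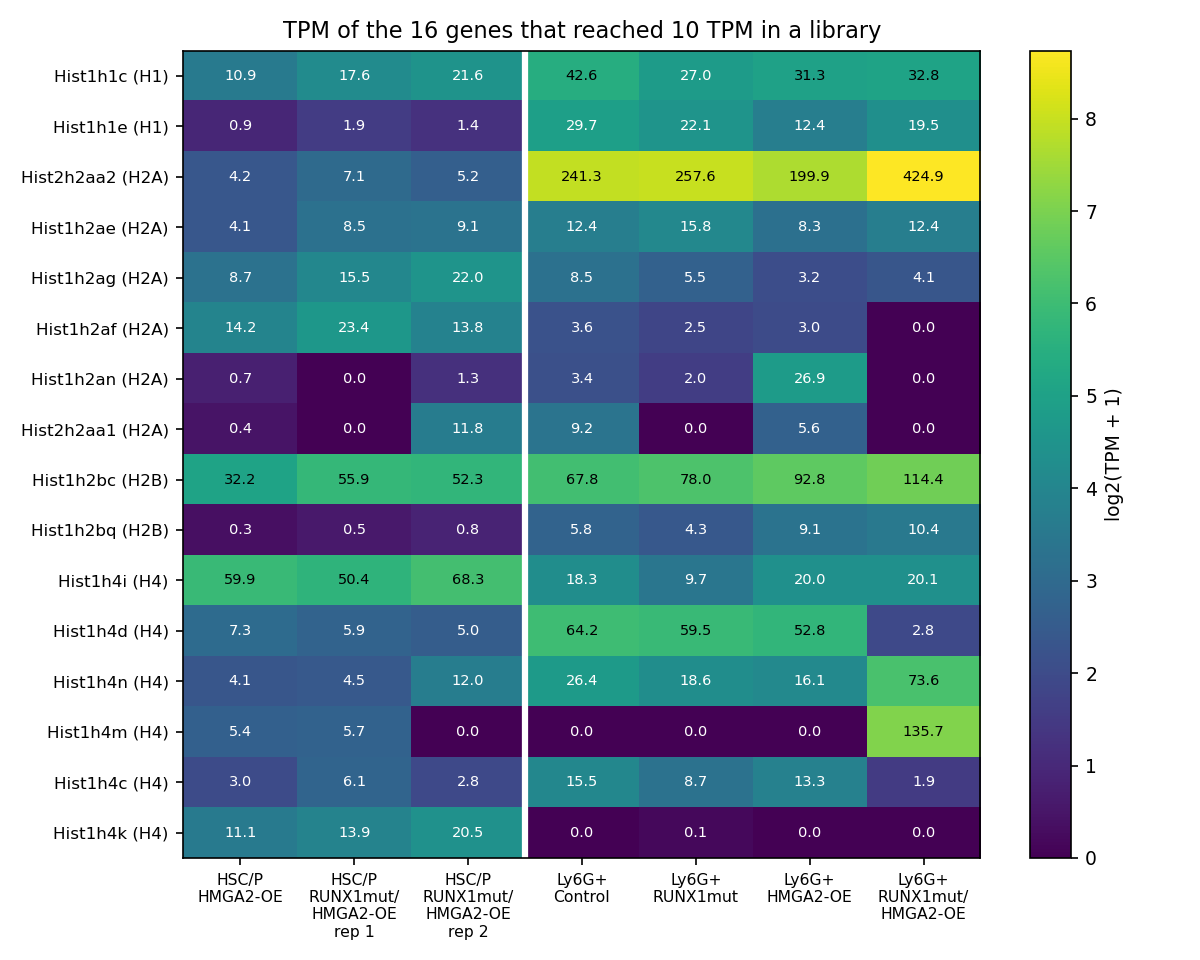
Each cell gives the TPM of a gene in a library, coloured by log2(TPM + 1), for the 16 genes that reached 10 TPM in a library. Hist2h2aa2 stands at 4.20 to 7.06 TPM in HSC/P and 199.9 to 425 TPM in Ly6G+ cells, while Hist1h4k stands at 11.1 to 20.5 TPM in HSC/P and at most 0.14 TPM in Ly6G+ cells.

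Among linker histones, Hist1h1c and Hist1h1e, which encode somatic H1 subtypes, were the main members. Hist1h1c stood at 10.9 TPM in HSC/P HMGA2-OE, 17.6 and 21.6 in RUNX1mut/HMGA2-OE, and in Ly6G+ cells at 42.6, 27.0, 31.3 and 32.8. Hist1h1e stood at 0.93, 1.90 and 1.36 TPM in HSC/P and at 29.7, 22.1, 12.4 and 19.5 TPM in Ly6G+ cells. Every Ly6G+ library was above every HSC/P library for both genes, and also for Hist1h1b (0.23 to 1.30 TPM against 4.23 to 8.21 TPM). Hist1h1d stayed between 0.24 and 0.83 TPM in the 7 libraries, and Hist1h1t, the testis H1, was listed above 0 in 1 library only.

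These 3 linker genes that were high in Ly6G+ cells share promoter letters that are known from H1 genes, which is why their promoters are shown. Each line gives the 120 bases before the start in RefSeq (GRCm38.p6), read on the gene's strand, with capitals on the H1 box (AAACACA), on CCAAT and on TATAAA, all 3 searched on both strands.
Hist1h1b, chr13:21780626-21780745, minus strand: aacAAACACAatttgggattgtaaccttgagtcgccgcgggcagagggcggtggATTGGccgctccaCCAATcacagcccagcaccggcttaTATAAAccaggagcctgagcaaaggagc
Hist1h1c, chr13:23738687-23738806, plus strand: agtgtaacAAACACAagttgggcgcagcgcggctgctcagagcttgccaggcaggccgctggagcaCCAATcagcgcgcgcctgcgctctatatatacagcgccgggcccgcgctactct
Hist1h1e, chr13:23622559-23622678, minus strand: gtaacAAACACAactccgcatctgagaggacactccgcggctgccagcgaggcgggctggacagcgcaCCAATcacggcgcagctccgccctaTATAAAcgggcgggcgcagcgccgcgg

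Over 250 bases before the start, promoters were matched for 49 of the 53 genes. AAACACA was found in 5 of 6 H1 promoters and 3 of the other 43, and in 6.22% of 27025 RefSeq promoters of that length. The 5 include Hist1h1d and Hist1h1t, which were low by TPM in both cell types, and CCAAT was found in all 6 H1 promoters. The annotated Hist1h1d transcript is 7425 bases long, against 1560 for Hist1h1c, and its RefSeq start lies 1770 bases from the GENCODE start. The part of that length in its TPM was not tested. These letters were thus not particular to the 3 genes shown. The octamer ATTTGCAT, known from H2B genes as a site for Oct factors, was found in 7 of 16 H2A and 4 of 11 H2B promoters, in none of the H1, H3 or H4 promoters, and in 1.61% of all. CCAAT was found in 40 of the 49 and in 34.5% of all, but in only 3 of 11 H4 promoters, and TATAAA in 25 of the 49 and in 12.97% of all. The 4 motifs were counted separately on both strands, overlaps allowed. A match describes the sequence and does not show that a factor binds there.

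Hist2h2aa2 was the H2A gene with the highest level (chr3:96239749-96240276, minus strand). It stood at 4.20 TPM in HSC/P HMGA2-OE and at 7.06 and 5.19 in RUNX1mut/HMGA2-OE. In Ly6G+ cells it stood at 241, 258, 199.9 and 425 TPM, so that no Ly6G+ library came near the HSC/P libraries. Its neighbour Hist2h2aa1 encodes the same histone, and every 31-base word of the Hist2h2aa2 transcript also occurs in Hist2h2aa1, so reads cannot be assigned between them. The sum of the pair was 4.59, 7.06 and 17.0 TPM in HSC/P and 251, 258, 206 and 425 TPM in Ly6G+ cells, and the separation held for the sum.

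Other H2A genes ran in both directions. Hist1h2ag stood at 8.75, 15.5 and 22.0 TPM in HSC/P and 8.53, 5.53, 3.19 and 4.11 TPM in Ly6G+ cells. Hist1h2af stood at 14.2, 23.4 and 13.8 TPM in HSC/P and at 3.57, 2.53, 2.98 and 0 TPM in Ly6G+ cells. Both were above every Ly6G+ library in every HSC/P library, whereas Hist1h2ae overlapped (4.13 to 9.10 TPM in HSC/P, 8.29 to 15.8 TPM in Ly6G+ cells). Hist1h2an reached 26.9 TPM in the Ly6G+ HMGA2-OE library and was at most 3.44 TPM elsewhere. Many H2A genes are close copies: Hist1h2ag, Hist1h2af and Hist1h2an each share at least 55.2% of their 31-base words with the pseudogene Hist1h2aj, which stood at 178 and 75.2 TPM in Ly6G+ Control and RUNX1mut and at 0 and 0.20 TPM in Ly6G+ HMGA2-OE and RUNX1mut/HMGA2-OE.

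Hist1h2bc was the leading H2B gene (chr13:23684199-23692908, plus strand). It stood at 32.2, 55.9 and 52.3 TPM in HSC/P and at 67.8, 78.0, 92.8 and 114 TPM in Ly6G+ cells. All Ly6G+ libraries were higher than all HSC/P libraries, and it is annotated without the stem-loop. Hist1h2bq showed the same order at lower levels, 0.28 to 0.84 TPM against 4.28 to 10.4 TPM. Hist2h2be went the other way, with 6.66, 4.69 and 4.63 TPM in HSC/P and 0.15 to 0.65 TPM in Ly6G+ cells. Hist1h2bj and Hist1h2bg overlapped between the cell types, at 2.24 to 8.97 and 1.89 to 9.21 TPM over all libraries.

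H3 genes were the lowest group. Hist1h3a stood at 3.53, 2.56 and 2.92 TPM in HSC/P and was listed at 0 in all 4 Ly6G+ libraries. Hist1h3c stood at 3.84, 3.52 and 4.38 TPM in HSC/P and at no more than 0.96 TPM in Ly6G+ cells. Hist1h3e (0.76 to 1.92 TPM) and Hist2h3b (0 to 3.64 TPM) overlapped between the cell types. Only 6 of the 12 annotated H3 genes were in the table, so these sums cover part of the H3 supply.

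H4 genes encode the same or nearly the same protein, and the member with the highest level differed between HSC/P and Ly6G+ cells. Hist1h4i led in HSC/P (chr13:22040636-22041362, minus strand), with 59.9 TPM in HMGA2-OE and 50.4 and 68.3 in RUNX1mut/HMGA2-OE, against 18.3, 9.71, 20.0 and 20.1 TPM in Ly6G+ cells. Hist1h4k stood at 11.1, 13.9 and 20.5 TPM in HSC/P and at 0, 0.14, 0 and 0 TPM in Ly6G+ cells. Hist1h4a and Hist1h4b were between 1.73 and 3.88 TPM in HSC/P and listed at 0 in all 4 Ly6G+ libraries.

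In Ly6G+ cells Hist1h4d had the highest H4 level in 3 of the 4 libraries, Hist1h4i remained among the leading H4 genes, and the RUNX1mut/HMGA2-OE library stood apart. Hist1h4d was at 64.2, 59.5 and 52.8 TPM in Ly6G+ Control, RUNX1mut and HMGA2-OE but at 2.77 TPM in RUNX1mut/HMGA2-OE, below the 4.99 to 7.27 TPM of HSC/P. Hist1h4c was at 15.5, 8.74 and 13.3 TPM in the same 3 libraries and at 1.90 TPM in RUNX1mut/HMGA2-OE. That library instead held 136 TPM of Hist1h4m, listed at 0 in the other 3 Ly6G+ libraries, and 73.6 TPM of Hist1h4n, which was at 26.4, 18.6 and 16.1 TPM in Control, RUNX1mut and HMGA2-OE. With 1 library of this group, the exchange has no replicate.

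Hist1h4m and Hist1h4n are copies of each other and are shown for that reason. They share 91.7% of the 31-base words of Hist1h4m, and 249 of 249 bases before their starts are identical once the windows are shifted by 1 base. The last 120 bases before each start (RefSeq, GRCm38.p6, gene's strand) hold neither CCAAT nor TATAAA, so no letters are in capitals.
Hist1h4m, chr13:21811626-21811745, plus strand: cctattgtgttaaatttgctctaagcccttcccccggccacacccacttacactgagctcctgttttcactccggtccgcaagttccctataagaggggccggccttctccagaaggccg
Hist1h4n, chr13:21832198-21832317, minus strand: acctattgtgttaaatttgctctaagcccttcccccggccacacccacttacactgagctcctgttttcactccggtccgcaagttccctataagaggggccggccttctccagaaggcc

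The sum of Hist1h4m and Hist1h4n, chosen after their values were seen, was 9.50, 10.2 and 12.0 TPM in HSC/P and 26.4, 18.6, 16.1 and 209 TPM in Ly6G+ cells. The sum was thus above HSC/P in every Ly6G+ library, and its split between the copies cannot be read from the table. Without the pair, H4 genes summed to 27.1 TPM in Ly6G+ RUNX1mut/HMGA2-OE and to 80.1 to 99.8 TPM in the other Ly6G+ libraries.

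**Figure D3:**
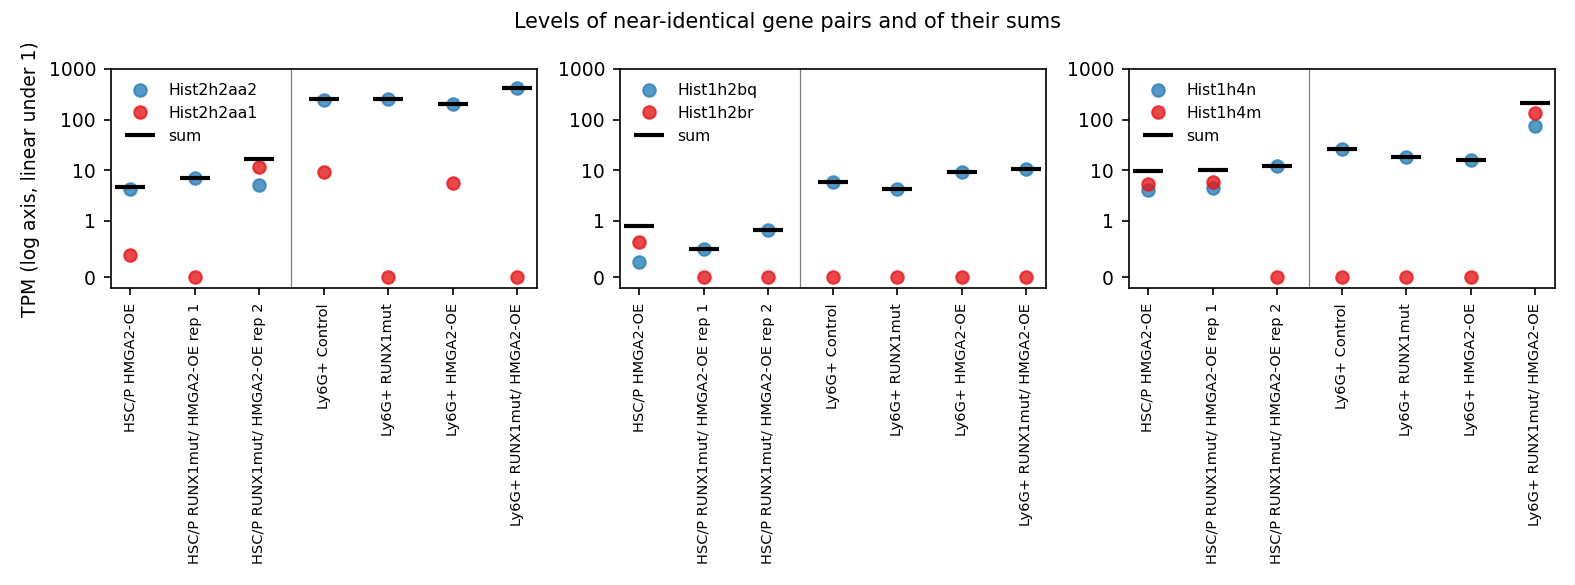
Points give the TPM of each gene of 3 near-identical pairs in the 7 libraries, and black bars the sum of the pair, on a log axis that is linear under 1 TPM. The split between copies changes from library to library, whereas the sums in Ly6G+ cells (206 to 425, 4.28 to 10.4 and 16.1 to 209 TPM) are above those in HSC/P for all 3 pairs.

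Sequence overlap was general among the 53 genes. The median gene had 43.7% of its 31-base words to itself among the annotated transcripts, 30 genes had under 50%, and Hist2h2aa1, Hist2h2aa2 and Hist2h3b had none. Values of single members within a type are therefore less certain than the sums.

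HSC/P were compared with Ly6G+ cells with a limma fit across 12686 genes in the 5 libraries with HMGA2-OE, with the RUNX1 mutation as a term. Of 41 members tested, 7 were higher and 13 lower in HSC/P at an adjusted p under 0.05, against 32.2% of all genes called higher and 32.5% called lower. The members' median log2 fold change was -1.05, and that of all genes 0.10. The 7 called higher were Hist1h4k, Hist1h4a, Hist1h4b, Hist1h3a, Hist1h3c, Hist2h2be and Hist1h2ah. All 7 were under 1 TPM in both Ly6G+ libraries of the fit and passed the filter on low values through HSC/P alone, so their calls support nothing beyond the levels given above. In all, 12 of the 41 members were under 1 TPM throughout a cell type, among them Hist1h2bq and Hist1h2be of the 13 called lower. Counted over the 29 members that reached 1 TPM in both cell types, a limit added after seeing the data, 0 were called higher and 11 lower (37.9%), against 27.8% and 38.5% of the 10219 genes that did so. The share of lower calls was therefore near that of other genes, and the members' median was -1.26 against -0.23.

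The members that fell in HSC/P relative to Ly6G+ cells were led by Hist2h2aa2, with a log2 fold change of -7.36 ± 0.20 (limma, adjusted p = 0.00062). For the sum with Hist2h2aa1 it was -6.93 ± 0.45 (limma, adjusted p = 0.00088). Among the members at 1 TPM in both cell types, Hist1h1e (-4.34), Hist1h4n (-4.25), Hist1h2bc (-3.10), Hist1h1b (-3.04) and Hist1h1c (-2.83) followed. Among the 29 members, 3 of 3 H1 genes, 4 of 11 H2A, 2 of 7 H2B, 1 of 2 H3 and 1 of 6 H4 genes were called lower.

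The scaling alternatives moved this comparison. Without scaling, the median of all genes moved from 0.10 to 1.46 and the members' median from -1.05 to 0.08, with 14 members called higher and 8 lower, and 87.9% of all calls were higher against 49.7% with scaling. Relative to the median of all genes, the members stood at -1.15 with scaling and -1.38 without. Of the 11 lower calls, 7 (Hist2h2aa2, Hist1h1b, Hist1h1c, Hist1h1e, Hist1h2ab, Hist1h2bc and Hist1h4n) held their direction and call under all 4 scalings run. Without the Ly6G+ RUNX1mut/HMGA2-OE library, left out after seeing the data, the members' median was -1.62 and 24 members were called. Hist1h4i, higher by TPM in every HSC/P library, was called only without scaling. With scaling its log2 fold change was negative, at scaled levels of 37.2, 28.3 and 37.6 in HSC/P and 70.9 and 29.7 in Ly6G+ cells. Of the 29 members at 1 TPM in both cell types, 1 was positive and 28 negative with scaling. The order of single members by TPM therefore need not hold with scaling.

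Over all 7 libraries and by TPM alone, 15 of the 50 members above 0 had every HSC/P value above every Ly6G+ value (background 42.9%) and 10 had every HSC/P value below (background 7.05%). The 15 held 1 H1, 4 H2A, 3 H2B, 2 H3 and 5 of 12 H4 genes, an H4 share (41.7%) near the background. The 10 held 3 H1, 3 H2A, 3 H2B and 1 H4 gene.

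**Figure D4:**
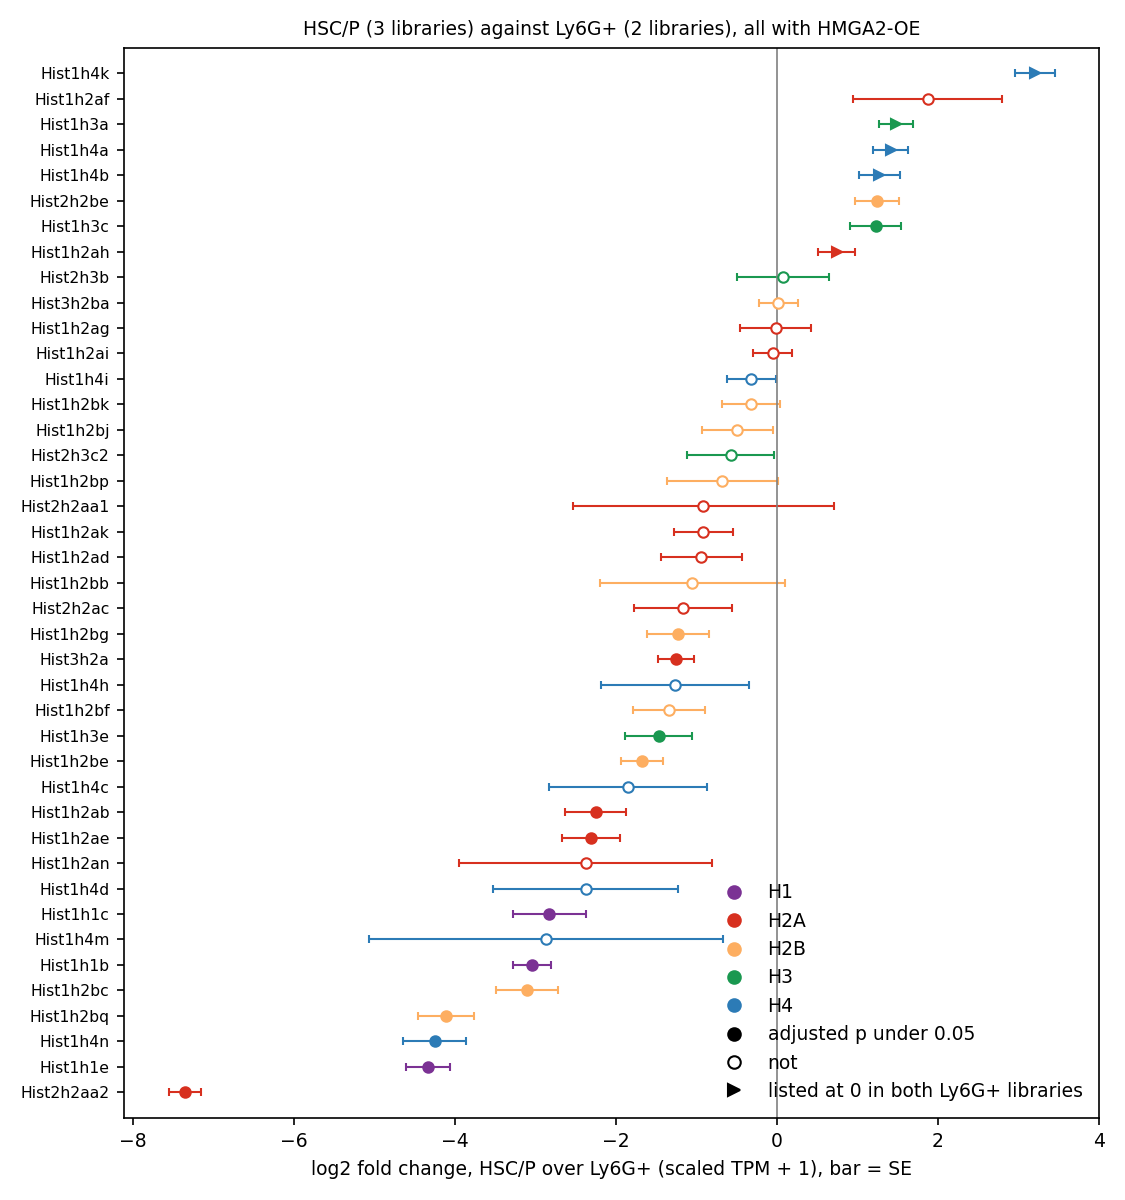
Points give the log2 fold change of 41 members, HSC/P over Ly6G+ cells in libraries with HMGA2-OE (3 against 2), on log2(scaled TPM + 1), bars the SE, colours the histone type and filled symbols an adjusted p under 0.05. Triangles are the 5 genes listed at 0 in both Ly6G+ libraries, whose position depends on the added constant of 1 TPM. The points run from Hist2h2aa2 at -7.36 to Hist1h4k.

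Genes that go with S phase did not follow the summed TPM of the histone clusters between the cell types. The 25 DNA replication genes on a fixed list summed to 3042 to 3432 TPM in HSC/P and 138 to 393 TPM in Ly6G+ cells, and 22 of 25 were called higher in HSC/P (limma, median log2 fold change 2.01) and 0 lower. The 20 histone mRNA processing genes measured summed to 941 to 1023 TPM in HSC/P and 134 to 348 TPM in Ly6G+ cells, with 11 called higher and 4 lower. Among them, Slbp, which binds the stem-loop, stood at 145 to 176 TPM in HSC/P and 27.9 to 68.9 TPM in Ly6G+ cells, and Npat, the activator of histone gene transcription, at 12.1 to 13.9 and 0.56 to 1.21 TPM. The 53 cluster genes had the opposite order of sums, but without Hist2h2aa2 their ranges overlapped (217 to 319 TPM in HSC/P, 298 to 474 TPM in Ly6G+ cells). Single members ran both ways, with 15 of 50 wholly above Ly6G+ cells in HSC/P and 10 wholly below (background 42.9% and 7.05%).

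**Figure D5:**
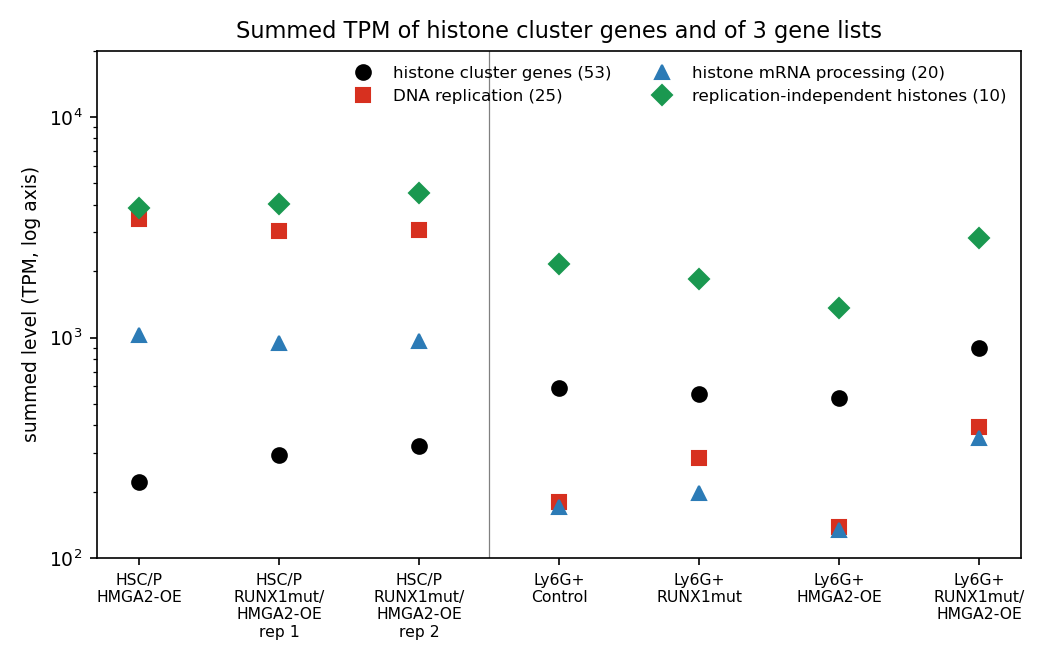
Summed level (TPM, log axis) of the 53 histone cluster genes and of 3 gene lists in the 7 libraries. DNA replication genes fall from 3042 to 3432 TPM in HSC/P to 138 to 393 TPM in Ly6G+ cells, while the cluster genes sit at 222 to 324 and 533 to 899 TPM. Without Hist2h2aa2 (not drawn) the cluster genes overlap between the cell types, at 217 to 319 and 298 to 474 TPM.

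Members were also split by where the annotated transcript ends, with a limit of 60 bases past the stem-loop that was chosen after the values were seen. In 17 genes, among them Hist2h2aa2 and Hist1h4n, at least 1 model with the stem-loop ended within that distance. They gave 19.6% to 23.9% of the members' TPM in HSC/P and 46.3% to 73.0% in Ly6G+ cells. Most of this Ly6G+ share was Hist2h2aa2, with 241, 258, 199.9 and 425 of the 306, 301, 247 and 656 TPM of these genes. In Ly6G+ RUNX1mut/HMGA2-OE, Hist1h4m plus Hist1h4n held another 209 TPM. The shares by transcript end therefore rest on a few genes and do not describe the class as a whole. In 18 genes, among them Hist1h4i, Hist1h4d and Hist1h1c, all models with the stem-loop ran on further, and these gave 37.8% to 46.9% and 12.1% to 32.5%. The 18 genes without a match gave 33.1% to 38.3% and 14.9% to 26.1%.

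Within HSC/P, the RUNX1 mutation was compared on the HMGA2-OE background, 2 libraries against 1. Across 12226 genes limma called 0% at an adjusted p under 0.05 (smallest 0.109), with 8.74% of genes higher and 6.76% lower at an unadjusted p under 0.05. Of 31 members tested, 22 had positive and 9 negative log2 fold changes, with a median of 0.41 against 0.00 for all genes. At the unadjusted threshold 5 members were higher (16.1%) and 0 lower. Of the 31, 4 (Hist1h1e, Hist1h4h, Hist1h2ah and Hist1h2ai) were under 1 TPM in HMGA2-OE and passed the filter through the RUNX1mut/HMGA2-OE libraries alone, so they had to be higher there. Over the other 27, a count added after seeing the data, 18 had positive and 9 negative values with a median of 0.32, against -0.02 for 11710 genes at 1 TPM in both groups. Of the 27, 4 were higher at the unadjusted threshold (14.8%) and 0 lower, against 7.63% and 7.05% of those genes.

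Those 4 were Hist1h2ag (0.86 ± 0.27), Hist1h2ae (0.81 ± 0.22), Hist1h1c (0.65 ± 0.20) and Hist1h2bc (0.59 ± 0.15), with limma adjusted p between 0.244 and 0.294, which do not pass. For each of the 4, both RUNX1mut/HMGA2-OE libraries were above the HMGA2-OE library, an order that picking them by this fit largely brings about. Hist1h4h, an H4 gene, stood at 0.53 TPM in HMGA2-OE and at 7.26 and 6.25 TPM in RUNX1mut/HMGA2-OE. The 7 H2A genes among the 27 had positive values (0.18 to 0.86). Hist1h4i, the leading H4 gene, had -0.18 ± 0.22 (limma, adjusted p = 0.723), and Hist1h4n 0.61 ± 0.59, where the sum with Hist1h4m had 0.06 ± 0.21.

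Genes of DNA replication and of mitosis had the opposite sign to the members' median in the same libraries, though 9 of 31 members were negative too. All 25 DNA replication genes and all 17 mitosis genes had negative values (medians -0.26 and -0.39). The 8 neutrophil markers moved with this comparison, with 7 negative and a median of -2.04, and the HSC/P marker list with 6 of 6 positive. Their part in the members' values was not tested. Leaving out either RUNX1mut/HMGA2-OE library brought the members' median to 0.17 (without replicate 1) and 0.30 (without replicate 2), so the size of the median depends on which libraries are used.

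In Ly6G+ cells the RUNX1 and HMGA2-OE terms came from an additive fit to 4 libraries, 1 per genotype. The ± values of these terms therefore do not measure variation between mice. For the RUNX1 term, limma called 0% of 9820 genes at an adjusted p under 0.05 (smallest 0.331), with 7.71% higher and 6.62% lower at an unadjusted p under 0.05. Of 26 members tested, 4 had positive and 22 negative values, with a median of -0.54 against 0.01 for all genes. At the unadjusted threshold 0 were higher and 6 lower (23.1%).

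Those 6 were Hist2h2aa1, Hist1h4i (-1.07 ± 0.11), Hist1h1c (-0.95 ± 0.13), Hist1h2bq (-0.70 ± 0.16), Hist1h2ag (-0.67 ± 0.12) and Hist1h1e (-0.54 ± 0.11), with limma adjusted p of 0.331 for each. Hist2h2aa1 was listed at 0 in both libraries with the mutation and passed the filter through the other pair alone, and its sum with Hist2h2aa2 had -0.14 ± 0.10. Without scaling, the RUNX1 term had a median of 0.58 for all genes and -0.11 for the members, 14 negative and 12 positive. By TPM, Hist1h1c was 42.6 and 31.3 without the mutation and 27.0 and 32.8 with it, which overlap, whereas for Hist1h2ag the 8.53 and 3.19 TPM without it enclosed the 5.53 and 4.11 TPM with it. In an additive fit to all libraries but Ly6G+ RUNX1mut/HMGA2-OE, added after seeing the data, the members' median was -0.051. The counts that follow are from the main Ly6G+ fit, which included that library. Of 24 DNA replication genes, 22 had positive values there, as had 7 of 8 erythroid markers (median 1.58). The part of the erythroid RNA was not tested.

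For the HMGA2-OE term in Ly6G+ cells, limma called 0% at an adjusted p under 0.05, with 3.34% higher and 3.17% lower at an unadjusted p under 0.05. Members had 14 positive and 12 negative values with a median of 0.06. At that threshold 2 were higher, Hist1h2bq (0.73 ± 0.16) and Hist1h4i (0.44 ± 0.11), and 3 lower, Hist1h2ag (-0.87 ± 0.12), Hist1h2ab (-0.86 ± 0.20) and Hist1h1e (-0.80 ± 0.11), with limma adjusted p between 0.581 and 0.741. Hist1h1e, picked by that threshold, was at 29.7 and 22.1 TPM without and 12.4 and 19.5 TPM with HMGA2-OE. How many of all genes were apart in this way was not counted.

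Pairs of single Ly6G+ libraries, compared by log2(TPM + 1) without scaling or test, gave the following counts. RUNX1mut over Control had 0 members at least 2-fold higher (background 6.61%) and 1 of 26 lower (2.76%), Hist2h2aa1. HMGA2-OE over Control had 2 higher (1.83%), Hist1h2an and Hist1h2bb, and 2 lower (4.24%), Hist1h1e and Hist1h2ag. RUNX1mut/HMGA2-OE over HMGA2-OE had 4 higher (52.3%) and 6 lower (2.07%), and RUNX1mut/HMGA2-OE over RUNX1mut had 2 higher (11.6%) and 6 lower (2.84%). Hist1h4d, Hist1h4c, Hist1h2an, Hist1h2bb and Hist1h2af were lower against both, and Hist1h4n higher against both. Those 2 ratios share the RUNX1mut/HMGA2-OE library, and Hist1h4m, at 1 TPM or more in that Ly6G+ library alone, was outside this count.

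For the RUNX1 term over both cell types with HMGA2-OE, limma called 0% of 12686 genes, and 0 of 41 members passed an unadjusted p under 0.05 (background 7.8%). The difference of the RUNX1 term between HSC/P and Ly6G+ cells was tested as an interaction. There limma called 0% at an adjusted p under 0.05 (smallest 0.122). On simulated data this fit called no changed gene at any size tried, so the absence of calls says nothing of whether the term differs. At an unadjusted p under 0.05, 15 of 41 members (36.6%) had a more positive RUNX1 term in HSC/P, against 8.6% of genes, and 3 (7.32%) a more negative one, against 9.51%. The members' median was 1.04, with 32 positive and 9 negative. Without scaling it was 0.40, with 25 positive and 16 negative, and fewer members passed that threshold. Of the 41, 12 were under 1 TPM throughout a cell type. In the libraries without the mutation, 4 (Hist1h2ah, Hist1h2ad, Hist1h2ai and Hist2h3c2) were under 1 TPM. The count of 15 was not repeated without such members, so it does not show how many members differ in this term.

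The interaction was led by the genes that were low in the Ly6G+ RUNX1mut/HMGA2-OE library. Hist1h4d had 4.75, and Hist1h4h, low in HSC/P HMGA2-OE, had 3.77. On the negative side Hist1h4m stood at -8.74, and its sum with Hist1h4n at -2.37. All 25 DNA replication genes were negative in this fit, with a median of -0.62. A single Ly6G+ library stood on each side of the interaction, so variation between Ly6G+ libraries was not measured. Only effect sizes are given, because the residual spread came from the pair of HSC/P RUNX1mut/HMGA2-OE libraries alone.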

How the data were processed

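Gene levels came as 1 table of 28987 Ensembl genes in 7 libraries. The deposited values are TPM, made by the authors with kallisto after bcl2fastq and CASAVA 1.8 against mm10, per the submitters' processing notes. The labels do not state the index, annotation or read depth, so no counting error can be stated. Members and lists were chosen with earlier results of these data known. For each fit, genes with 2 or more libraries at 1 TPM were scaled by a trimmed mean of log ratios (30% and 5% trims), taken as log2(TPM + 1) and fitted with limma 3.58.1 (R 4.3.3, variance trend, Benjamini-Hochberg adjusted p under 0.05) in 6 comparisons. The fits were tested on simulated data in which only genes above a mean level of about 10 TPM were changed. The interaction called no changed gene at any size tried and the Ly6G+ terms few of the smaller changes, so an absence of calls there carries little information. No fit called more than 2.67% of 2-fold changes, and the RUNX1 comparison in HSC/P called 51.3% of 4-fold changes. An absence of calls therefore says little of 2-fold changes in any fit, and members under that level were not covered. Names, transcripts and 31-base words came from GENCODE M21, and promoters from RefSeq (GRCm38.p6). Named genes were, per histone type, the 4 with the highest mean TPM and, per comparison, the 3 largest changes in each direction among members at 10 TPM or more; others were named for their counts or tests after their values were seen. Alternatives covered the pseudocount, filter, scaling, variance trend, libraries left out, members counted and near-identical copies summed. Figures were drawn with matplotlib 3.10.9 (Python 3.11.15).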

Additional observations from a re-analysis of the deposited data

How the results depend on the processing

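Values are the members' median log2 fold change unless stated. In HSC/P, RUNX1mut/HMGA2-OE against HMGA2-OE, the median of 0.41 was 0.59 with a pseudocount of 0.1 TPM, 0.18 with 5 TPM, 0.25 without a filter, 0.59 with a mean of at least 5 TPM, 0.32 over genes at 1 TPM in both groups, 0.51 without scaling (1 gene called) and 0.17 to 0.30 with a RUNX1mut/HMGA2-OE library left out, where Hist1h4i ran from -0.37 to 0.030. For the Ly6G+ RUNX1 term (-0.54), no scaling gave -0.11 with 2 members and 133 genes called. All 7 libraries in an additive fit without Ly6G+ RUNX1mut/HMGA2-OE, chosen after seeing the data, gave -0.051, with Hist1h4n at -0.035. For the Ly6G+ HMGA2-OE term, 61 genes were called without scaling, 58 with all 7 libraries and 47 without Ly6G+ RUNX1mut/HMGA2-OE, where Hist1h4d came to 0.050 and Hist1h4c to 0.49. Hist1h2an came to -0.52 with a pseudocount of 0.1 TPM.

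For HSC/P against Ly6G+ (-1.05, 20 members called), a mean of at least 5 TPM gave -2.37 with 7 members called, of fewer tested, members at 1 TPM in both groups -1.26 with 11 called, no scaling 0.084, and leaving out a library -1.62 to -1.13, with 15 to 24 members called. Hist1h2af ran from -0.28 (without Ly6G+ RUNX1mut/HMGA2-OE) to 1.69. The RUNX1 term over both cell types called 88 genes without scaling. The interaction (1.04) gave 1.39 and 0.60 with pseudocounts of 0.1 and 5 TPM, 0.65 without a filter (3 members and 3250 genes called), 1.39 with a mean of at least 5 TPM, 0.40 without scaling, 0.97 with upper-quartile scaling and 0.91 to 0.98 with a library left out, where Hist1h4n ran from -0.94 to 0.12. Where not named otherwise, the cause was not tested.

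Among Ly6G+ pairs, RUNX1mut over Control (-0.10) gave -0.061 with a pseudocount of 5 TPM and -0.24 with trimmed-mean scaling, HMGA2-OE over Control (-0.20) gave -0.094 and 0.13, RUNX1mut/HMGA2-OE over HMGA2-OE (0.17) gave 0.071 and -0.89, and RUNX1mut/HMGA2-OE over RUNX1mut (-0.17) gave -0.10 and -0.59. No paired analysis was possible because the groups share no replicate numbers beyond a single library each. With Ly6G+ libraries left out of the 4-library fit no residual degree of freedom remains, so no test was run. Depth is unknown, and levels under 1 TPM carry no stated error.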
